A study of Homo sapiens with 12 samples.

Results

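The 49 genes described here encode the small-subunit processome, its box C/D partners, the factors of the pre-40S particle and its export, and RNA polymerase I with its cofactors. They were listed by symbol as known parts of these complexes, no measured value enters the rule, and their transcripts were summed per symbol. All 49 were found among the 24559 gene symbols of the deposited table, and all 49 passed the filter on low counts, as did 16538 genes in total.

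Polysome-associated RNA was sequenced in 12 libraries from 3 established human cell lines of triple-negative breast cancer (TNBC), with 2 libraries in each of 6 groups. MDA-MB-231 and SUM159 cells carried either a non-silencing shRNA, labelled EV CTRL, or an shRNA against TRMT112 (KD), in a GIPZ vector under puromycin selection. BT549 cells carried either an empty vector (EV) or the TRMT112 reading frame in pReceiver-M02 (OE), under G418 selection. The comparison asks which mRNAs on polysomes differ when TRMT112, a small cofactor that holds several RNA and protein methyltransferases in an active form, is lowered or raised. The methods do not say whether the lines were clones or pools, and nothing says that the 2 libraries of a group came from separate cultures. The p-values therefore measure the spread between these libraries, which may be technical. No total RNA libraries were used, so the amount of an mRNA and its loading on ribosomes cannot be told apart.

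Ribosome production begins in the nucleolus, where RNA polymerase I copies the rDNA into a long precursor rRNA. The small-subunit processome assembles on that precursor as it is made: the UTP-A complex binds its leading spacer, UTP-B and the U3 snoRNP follow, and helicases, GTPases and methyltransferases then fold, cut and modify the RNA until a precursor of the 40S subunit can leave the nucleus. Growing cells, tumor cells among them, keep these genes active, and MYC is a known activator of many of them through the E-box CACGTG.

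Library totals lay between 22954226 and 27434677 expected counts. Values below are counts divided by TMM-scaled library size and brought to a common scale (normalized counts), and a gene is called higher or lower at an adjusted p under 0.05 in edgeR's quasi-likelihood test. TRMT112 itself was at 4132 and 3924 in the EV libraries and 1758 and 1676 in the KD libraries of MDA-MB-231, which is -1.23 ± 0.04 (SE, adjusted p = 5.1e-16) on the log2 scale. In SUM159 it was at 6310.2 and 6543 in the EV libraries and 3895 and 3686 in the KD libraries, a change of -0.76 ± 0.04 (SE, adjusted p = 1.76e-14). The BT549 groups had 3065 and 3076 in the EV libraries and 4271 and 4305 in the OE libraries, a change of 0.48 ± 0.04 (SE, adjusted p = 1.48e-10). TRMT112 thus followed its labels in every library, with no overlap between groups. The fall was larger in MDA-MB-231 than in SUM159, by 0.47 on the log2 scale (adjusted p = 1.83e-07), although with a correction for transcript length this difference was 0.12 and was not called. Of the markers checked, EGFR, VIM and CD44 were present in all libraries, ESR1 and CD3E had no row in the table, ERBB2, listed as low or absent, was present at 1379.8 to 3409, PGR was at most 9.93 in BT549 and carried only the missing mark, taken as 0, in the other lines, and PTPRC did not exceed 13.8. PECAM1 was at 24.1 and 25.05 in the EV libraries and 88.4 and 103 in the KD libraries of SUM159, and its part in the results was not tested.

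In SUM159, 46 of the 49 members were lower in KD than in EV and 0 were higher, with a median log2 fold change of -0.88. Over all genes tested, 31.4% were lower and 28.6% higher, and the median was 0. DESeq2 called 1 member higher, and at an unadjusted p under 0.05 edgeR gave 0. The 3 members that were not called were PWP2, IMP3 and UTP11. In MDA-MB-231, 21 members were lower and 5 higher, with a median of -0.10, against 16.5% lower and 21.2% higher among all genes and a median of 0. In BT549, 30 members were higher in OE and 14 lower, with a median of 0.41, against 35.6% higher, 35% lower and a median of 0.02 for all genes. The summed normalized counts of the members were 90302 and 90488 in SUM159 EV and 56729 and 56086 in KD. The same sum was 78875 and 78481 in MDA-MB-231 EV, against 75518 and 76874 in KD. BT549 rose from 62079 and 62429 in EV to 81776 and 80376 in OE. The sums did not overlap between the groups of any line. FBL alone held between 13.9% and 22.1% of them.

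**Figure D1:**
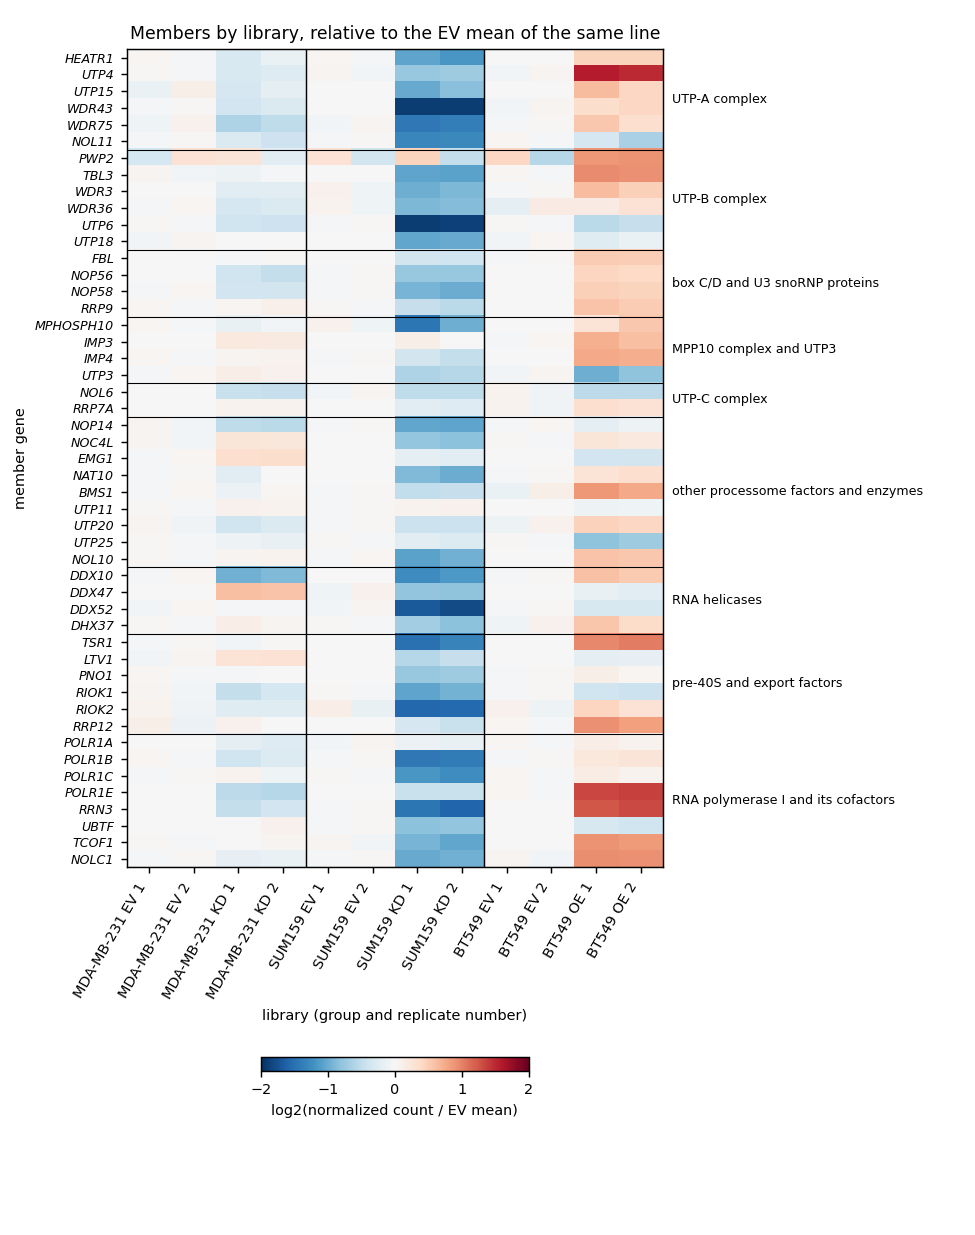
Each row is a member and each column a library; color gives log2 of the normalized count over the mean of the EV libraries of the same line, cut at -2 and 2. Both SUM159 KD columns are blue for most members (46 of 49 called lower), the MDA-MB-231 KD columns are pale with DDX10 the most negative and DDX47 the most positive, and the BT549 OE columns are mostly red, led by UTP4, POLR1E and RRN3.

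When libraries were scaled by their totals alone, the calls over all genes in MDA-MB-231 turned from 3505 higher and 2735 lower to 2363 higher and 4082 lower, and 27 members were then lower and 4 higher. When only the most abundant transcript of each gene was counted, 9 members were lower in MDA-MB-231. Lower calls over all genes there fell as well, to 1221 of 16200, against 2735 of 16538 with transcripts summed. DESeq2 left 16 lower there, without HEATR1, WDR3, WDR36, UTP20 and RIOK2. Over all genes it called 2187 of 15255 lower in MDA-MB-231. It also did not call UTP25 and POLR1A in SUM159 or NOP14 and UTP11 in BT549.

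UTP-A is the part of the processome that binds the precursor rRNA early and is also needed for transcription by RNA polymerase I. All 6 of its members (HEATR1, UTP4, UTP15, WDR43, WDR75 and NOL11) were lower in SUM159 KD, with a median log2 change of -1.20, and 5 of 6 were lower in MDA-MB-231 KD, with a median of -0.31. Over all genes tested 31.4% were lower in SUM159 and 16.5% in MDA-MB-231. WDR43, a WD-repeat subunit, had 3393 and 3339 in the EV libraries and 901 and 902 in the KD libraries of SUM159, the largest fall of any member at -1.90 ± 0.05 (SE, adjusted p = 1.88e-19). In MDA-MB-231 it was at 1976 and 2036 in the EV libraries and 1530.2 and 1637 in the KD libraries, a change of -0.34 ± 0.05 (SE, adjusted p = 3.93e-06). In BT549 it rose by 0.38 ± 0.06 (SE, adjusted p = 2.28e-06). WDR43 was thus lower in each KD library than in each EV library of its line. UTP4 (cirhin) was the most abundant UTP-A mRNA on average and had 1176 and 1270.1 in the EV libraries and 3647 and 3438 in the OE libraries of BT549, the largest rise of any member at 1.53 ± 0.05 (SE, adjusted p = 4.05e-18). It fell by 0.73 in SUM159 and by 0.28 in MDA-MB-231. WDR75 was at 538 and 608 in the EV libraries and 375 and 403 in the KD libraries of MDA-MB-231, a change of -0.56 ± 0.09 (SE, adjusted p = 2.46e-05), and changed by -1.40 in SUM159 and 0.45 in BT549. HEATR1, the large HEAT-repeat scaffold, had 858 and 820.5 in the EV libraries and 402 and 373 in the KD libraries of SUM159 (-1.12) and changed by 0.45 in BT549. Its fall of 0.22 in MDA-MB-231 (adjusted p = 0.0478) was not called without EV replicate 1, EV replicate 2 or KD replicate 1, when values ran from -0.30 to -0.14 over the libraries left out. NOL11 went against its partners in BT549, where it was lower in OE by 0.48 (adjusted p = 4e-05), with 619 and 583 in the EV libraries and 478 and 381 in the OE libraries. Its MDA-MB-231 call was lost with protein-coding transcripts alone (-0.36, adjusted p = 0.0521). UTP15 was called in SUM159 (-0.92) and BT549 (0.52) and was at -0.27 in MDA-MB-231 (adjusted p = 0.0727).

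**Figure D2:**
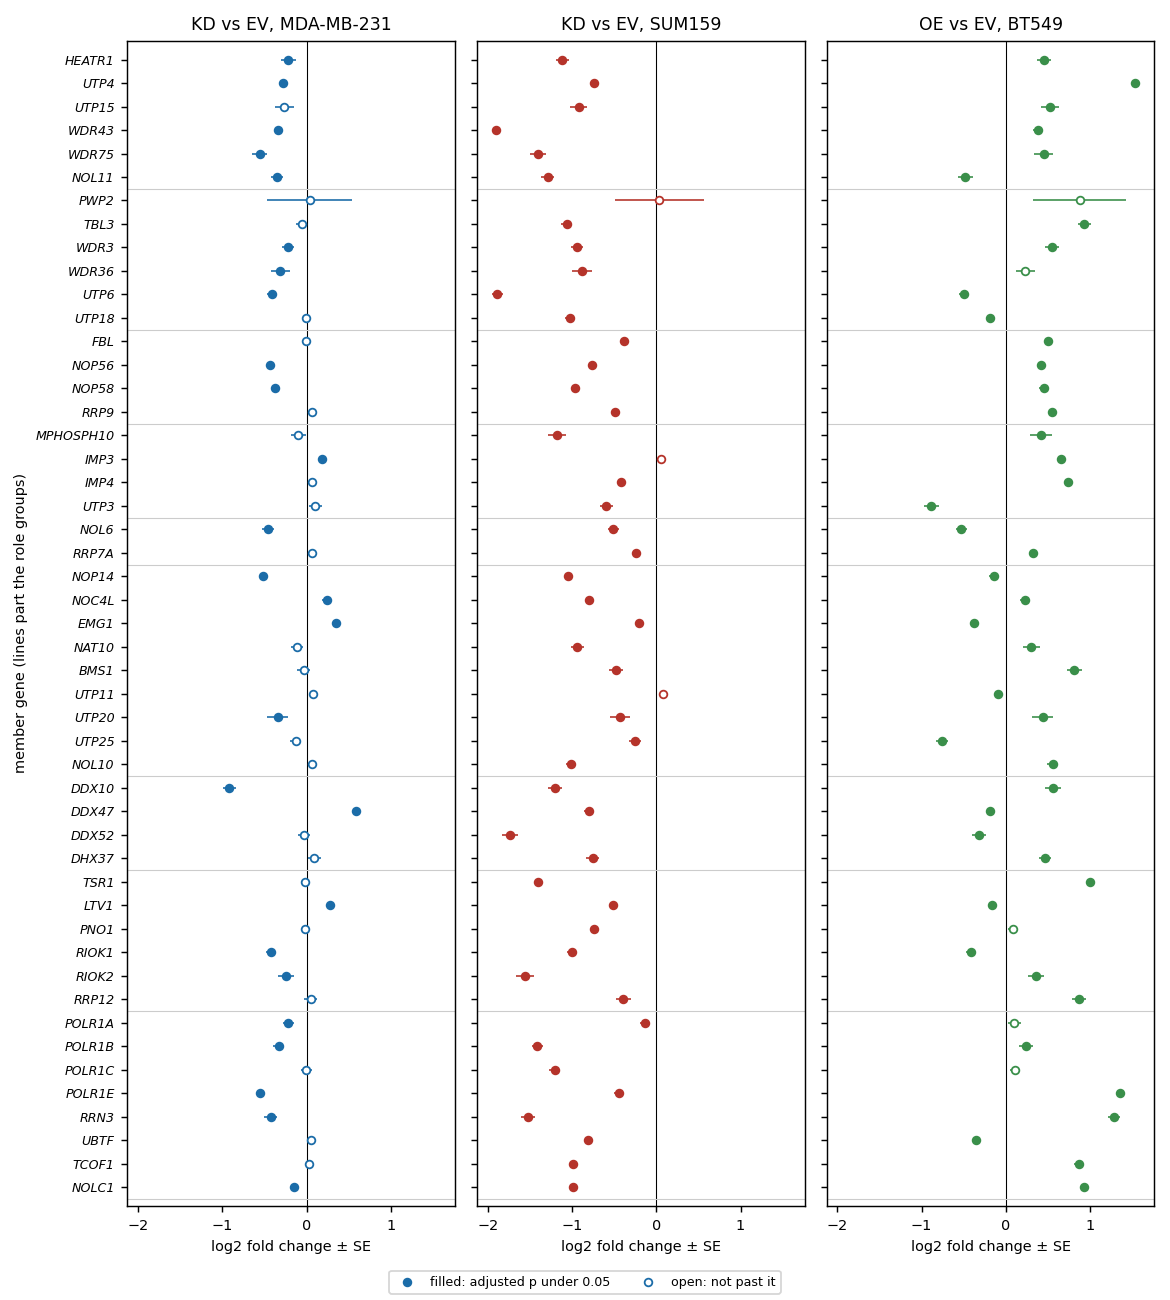
Log2 fold change of each member (points) with its standard error (bars) in the 3 comparisons, in role order; filled points passed an adjusted p of 0.05. In SUM159 46 filled points lie left of 0, in MDA-MB-231 21 lie left and 5 right, and in BT549 30 lie right and 14 left.

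UTP-B is a WD-repeat complex that joins after UTP-A and contacts U3. Of its 6 members, 5 were lower in SUM159 KD (median over all 6 -0.98) and 3 were lower in MDA-MB-231 KD (median -0.14). The shares over all genes tested were 31.4% and 16.5%. UTP6 had 1221 and 1271 in the EV libraries and 334 and 340.4 in the KD libraries of SUM159, a change of -1.89 ± 0.07 (SE, adjusted p = 3.56e-17), and 1139 and 1112 in the EV libraries and 854 and 844 in the KD libraries of MDA-MB-231, a change of -0.41 ± 0.06 (SE, adjusted p = 4.9e-06). It was also lower in BT549 OE, by 0.50. These UTP6 values rest mostly on a pair of transcripts annotated with a retained intron, UTP6-202 with 47.3% and UTP6-209 with 31.1% of the counts. With protein-coding transcripts alone the MDA-MB-231 change was -0.70 (adjusted p = 0.0723) and the BT549 change -0.02 (adjusted p = 0.958). TBL3, another WD-repeat subunit, rose in BT549 from 367 and 349.8 to 689.7 and 675, by 0.93 ± 0.08 (SE, adjusted p = 1.52e-10), and fell by 1.06 in SUM159. UTP18, the most abundant UTP-B mRNA, had 1711 and 1703 in the EV libraries and 833 and 845 in the KD libraries of SUM159 (-1.02 ± 0.06 SE, adjusted p = 1.66e-13) and was at -0.01 in MDA-MB-231. In BT549 UTP18 was lower by 0.19, a call lost without EV replicate 2 or OE replicate 1 (range -0.24 to -0.13). WDR3 had 1074 and 957 in the EV libraries and 516 and 542 in the KD libraries of SUM159. It changed by -0.22, -0.94 and 0.55 in MDA-MB-231, SUM159 and BT549, and its MDA-MB-231 call was lost when any 1 of the 4 libraries of that line was left out (range -0.24 to -0.21). WDR36 changed by -0.31 in MDA-MB-231, again lost when any 1 of the 4 was left out (range -0.36 to -0.27), and by -0.88 in SUM159. PWP2 was listed at only 7.72 to 21.8 normalized counts in any library. A gene listed as ENSG00000275464 shares 94.7% of the 31-base words of its main transcript, and the counting could divide reads between them. That copy had 528 and 612 in the EV libraries and 446 and 409.97 in the KD libraries of MDA-MB-231 and 548 and 579 in the EV libraries and 232 and 199.96 in the KD libraries of SUM159. The copy fell by 0.41 and 1.39 and rose by 0.82 in BT549, so the values of PWP2 are uncertain.

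The box C/D proteins form the particles that guide 2'-O-methylation of rRNA, and RRP9 joins them in the U3 snoRNP. The 4 members are FBL, NOP56, NOP58 and RRP9. All 4 were lower in SUM159 KD (median -0.63) and all 4 higher in BT549 OE (median 0.48). Among all genes tested 31.4% were lower in SUM159 KD and 35.6% higher in BT549 OE. FBL, the methyltransferase, was the most abundant member in every group. It had 16249 and 15965 in the EV libraries and 12523 and 12168 in the KD libraries of SUM159, a change of -0.38 ± 0.03 (SE, adjusted p = 2.15e-11), and 11756 and 12062 in the EV libraries and 17015 and 16681 in the OE libraries of BT549, a change of 0.50 ± 0.03 (SE, adjusted p = 1.02e-13). In MDA-MB-231 FBL was at 10969.6 and 10927 in the EV libraries and 10747 and 11126 in the KD libraries, and those groups overlapped. NOP56 and NOP58, the scaffold pair on which FBL sits, were called in all 3 comparisons. NOP56 had 1522 and 1492 in the EV libraries and 1146 and 1086 in the KD libraries of MDA-MB-231 (-0.43 ± 0.05 SE, adjusted p = 1.17e-07), and changed by -0.76 in SUM159 and 0.42 in BT549. NOP58 had 2253 and 2345 in the EV libraries and 1201 and 1158 in the KD libraries of SUM159 (-0.96 ± 0.05 SE, adjusted p = 4.44e-14), and changed by -0.37 in MDA-MB-231 and 0.46 in BT549. RRP9, which binds U3, changed by -0.49 in SUM159 and 0.54 in BT549 and was at 0.07 in MDA-MB-231 (adjusted p = 0.226). SNU13, a core protein of the same particles that is not among the 49, had 4802 and 4972 in the EV libraries and 5133 and 5208 in the KD libraries of SUM159 and was called higher there (0.08 ± 0.03 SE, adjusted p = 0.0393). That call was lost when 3 of the 4 SUM159 libraries were left out in turn, and with the length correction it was -0.094 and called lower. SNU13 changed by -0.16 in MDA-MB-231 and 0.82 in BT549.

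Several members carry snoRNA genes in their introns: NOP56, NOP58, WDR43, TSR1 and NOL11 hold named snoRNAs in the annotation. These 5 hosts were all lower in SUM159, at log2 changes from -1.90 to -0.76, and 4 of them were lower in MDA-MB-231. Of the 49 members, 46 were lower in SUM159 and 21 in MDA-MB-231, against 31.4% and 16.5% of all genes tested. The SUM159 count therefore does not set the hosts apart from the other members. The values are those of the spliced host transcripts, and the snoRNAs were not analysed here.

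The MPP10 complex (MPHOSPH10, IMP3 and IMP4) helps U3 pair with the precursor rRNA, and UTP3 works beside it. In SUM159 KD 3 of these 4 were lower, against 31.4% of all genes tested. MPHOSPH10 had 918 and 812 in the EV libraries and 317 and 440.4 in the KD libraries, a change of -1.18 ± 0.11 (SE, adjusted p = 9.85e-10), and its BT549 rise of 0.41 was not called without OE replicate 2 (range 0.27 to 0.54). IMP4 was the most abundant of the group and had 1935 and 1935 in the EV libraries and 3258 and 3213 in the OE libraries of BT549 (0.74 ± 0.04 SE, adjusted p = 2.95e-13), with -0.42 in SUM159. IMP3 departed from its partners: it was higher in MDA-MB-231 KD by 0.19 ± 0.05 (SE, adjusted p = 0.00734), at 1302 and 1317 in the EV libraries and 1506 and 1476 in the KD libraries, and was at 0.05 in SUM159 (adjusted p = 0.348). The MDA-MB-231 call of IMP3 was lost without KD replicate 1 (range 0.17 to 0.20), and with a correction for transcript length the SUM159 value was -0.16 and was called lower. UTP3 had 499.7 and 541 in the EV libraries and 265 and 298 in the OE libraries of BT549, the largest fall of any member in OE at -0.89 ± 0.09 (SE, adjusted p = 5.3e-09), and changed by -0.60 in SUM159.

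UTP-C was represented by NOL6 and RRP7A. NOL6 was lower in the treated group of every line, which set it apart from most members in BT549. It had 731 and 728 in the EV libraries and 533 and 529 in the KD libraries of MDA-MB-231 (-0.46 ± 0.07 SE, adjusted p = 1.07e-05), 869.995 and 932 in the EV libraries and 631 and 633 in the KD libraries of SUM159 (-0.51 ± 0.07 SE, adjusted p = 3.73e-07) and 1228 and 1122 in the EV libraries and 816 and 814 in the OE libraries of BT549 (-0.53 ± 0.06 SE, adjusted p = 1.02e-07). The treated and EV libraries of NOL6 did not overlap in any line. RRP7A, which shares 26.6% of its 31-base words with other genes, had 2231 and 2229 in the EV libraries and 1919.9 and 1871 in the KD libraries of SUM159. It changed by -0.24 there and by 0.32 in BT549.

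The other factors and enzymes include scaffolds, a GTPase and modifying enzymes. Of these, 8 of the 9 were lower in SUM159 KD, against 31.4% of all genes tested. NOP14 had 2784 and 2603 in the EV libraries and 1903 and 1861 in the KD libraries of MDA-MB-231 (-0.52 ± 0.05 SE, adjusted p = 6.48e-09) and 2211 and 2295 in the EV libraries and 1102 and 1085 in the KD libraries of SUM159 (-1.04 ± 0.05 SE, adjusted p = 1.61e-14). In BT549 it was at -0.14 (adjusted p = 0.0438), a call that was lost without EV replicate 2 or OE replicate 1 (range -0.18 to -0.10). It was lost under 8 of the other alternatives as well, among them a replicate block (adjusted p = 0.0586) and the length correction (-0.048). NOC4L, the binding partner of NOP14, moved the other way in MDA-MB-231, where it had 911 and 848 in the EV libraries and 1045 and 1031 in the KD libraries (0.24 ± 0.06 SE, adjusted p = 0.00155). In SUM159 NOC4L fell to 923 and 899.8 from 1581 and 1583 (-0.80 ± 0.05 SE, adjusted p = 6.76e-12). In BT549 it had 1202 and 1158 in the EV libraries and 1399 and 1358 in the OE libraries (0.22 ± 0.05 SE, adjusted p = 0.000838), not called with the length correction (0.054). EMG1, which methylates a pseudouridine of 18S rRNA, had 1231 and 1290.4 in the EV libraries and 1597 and 1605 in the KD libraries of MDA-MB-231, a rise of 0.34. It fell by 0.20 in SUM159 and by 0.38 in BT549. NAT10, the acetyltransferase of 18S rRNA, fell by 0.93 in SUM159, and its rise of 0.30 in BT549 was not called without EV replicate 1 or OE replicate 2 (range 0.27 to 0.33). BMS1, a GTPase, changed by -0.48 in SUM159 and 0.81 in BT549. UTP20, a very large scaffold, had 263 and 270.5 in the EV libraries and 199 and 197 in the KD libraries of SUM159. It changed by -0.34, -0.43 and 0.44 in MDA-MB-231, SUM159 and BT549, and the MDA-MB-231 call was lost when any 1 of the 4 libraries was left out (range -0.40 to -0.28). UTP25 had 859 and 839.7 in the EV libraries and 484 and 520.01 in the OE libraries of BT549 (-0.76 ± 0.07 SE, adjusted p = 1.41e-09), and its fall of 0.25 in SUM159 was not called without KD replicate 2 (range -0.28 to -0.22). UTP11, the most abundant of this group, was at 2009.5 and 2097 in the EV libraries and 2162 and 2189 in the KD libraries of SUM159 (adjusted p = 0.0884), and its BT549 change of -0.10 lost its call when any 1 of the 4 BT549 libraries was left out (range -0.11 to -0.09). NOL10 changed by -1.01 in SUM159 and 0.55 in BT549, and with protein-coding transcripts alone the BT549 change was not called (0.40, adjusted p = 0.0584).

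The 4 RNA helicases were all lower in SUM159 KD, against 31.4% of all genes tested, but differed most among themselves in MDA-MB-231. DDX10 had 834 and 878 in the EV libraries and 439.7 and 467 in the KD libraries of MDA-MB-231, the largest fall of any member there at -0.92 ± 0.08 (SE, adjusted p = 1.43e-09). It fell by 1.20 in SUM159 and rose by 0.56 in BT549. In MDA-MB-231 only 36.8% and 41.1% of DDX10 counts lay on coding transcripts in EV and 63.2% and 59.04% in KD, and with those alone the change was -0.30 (adjusted p = 0.0678). Its transcript DDX10-206, without a defined reading frame, had expected counts of 512 and 547 in the EV libraries and 133 and 147 in the KD libraries there, whereas the coding DDX10-201 had 325 and 394 in the EV libraries and 291 and 284 in the KD libraries. DDX47 had 3335 and 3319.7 in the EV libraries and 5042 and 4941 in the KD libraries of MDA-MB-231, the largest rise of any member there at 0.59 ± 0.04 (SE, adjusted p = 1.32e-10), yet 1130.5 and 1274 in the EV libraries and 696 and 689.5 in the KD libraries of SUM159 (-0.80 ± 0.06 SE, adjusted p = 2.56e-11). The main DDX47 transcript shares 99.7% of its 31-base words with transcripts listed under APOLD1, which had 842 and 889.99 in the EV libraries and 1122 and 1029 in the KD libraries of MDA-MB-231 and 251 and 232 in the EV libraries and 482 and 524 in the KD libraries of SUM159. The split between these genes is therefore uncertain. DDX52 had 545 and 587 in the EV libraries and 176 and 165 in the KD libraries of SUM159 (-1.74 ± 0.09 SE, adjusted p = 6.71e-14) and was at -0.03 in MDA-MB-231. Its transcript DDX52-215, annotated for nonsense-mediated decay, had expected counts of 319 and 340 in SUM159 EV and 68.7 and 81.2 in KD. The coding DDX52-213 had 204 and 225 in SUM159 EV and 90.3 and 110 in KD. Over the processing alternatives the SUM159 change of DDX52 ran from -2.24 to -1.18 and kept its call. DHX37, which frees U3 from the precursor, changed by -0.76 in SUM159 and by 0.46 ± 0.08 (SE, adjusted p = 8.8e-06) in BT549, with 666 and 749 in the EV libraries and 1034 and 915 in the OE libraries.

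**Figure D3:**
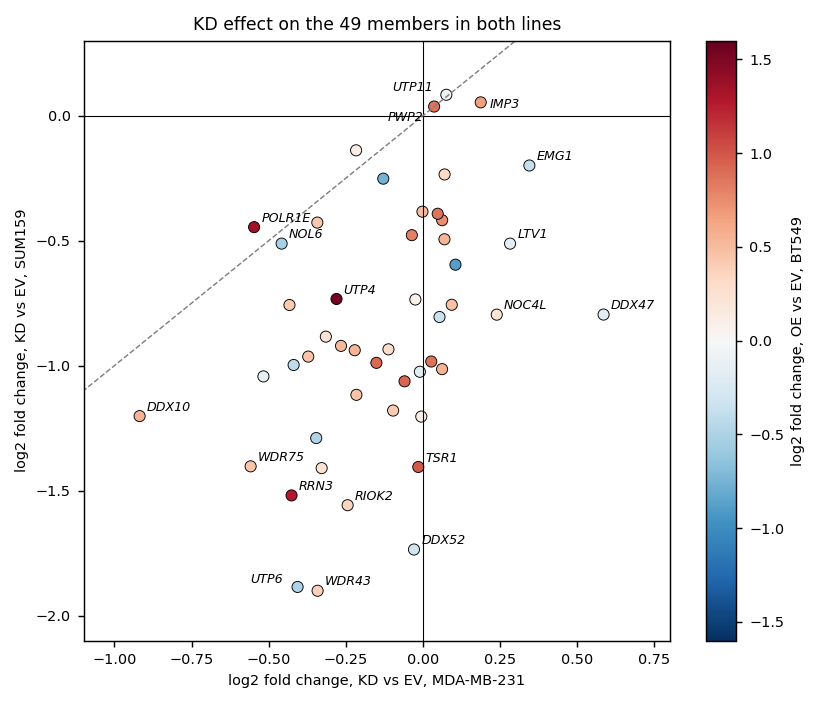
Each point is a member, placed by its log2 KD effect in MDA-MB-231 (horizontal) and SUM159 (vertical) and colored by its log2 OE effect in BT549; the dashed line marks equal KD effects. Of the 49 points 45 lie below the dashed line, and POLR1E lies just above it. Among the points right of 0 and below 0 are DDX47, NOC4L, LTV1 and EMG1, the members called with opposite signs in these lines.

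The 6 factors of the pre-40S particle and its export were all lower in SUM159 KD (median -0.87), against 31.4% of all genes tested. TSR1, a GTPase-like protein that blocks early subunit joining, had 2428 and 2441 in the EV libraries and 863 and 969.6 in the KD libraries of SUM159 (-1.41 ± 0.05 SE, adjusted p = 4.69e-17) and 1924 and 1955 in the EV libraries and 3793 and 3924 in the OE libraries of BT549 (0.99 ± 0.04 SE, adjusted p = 1.36e-15). In MDA-MB-231 it was at 7101 and 7319 in the EV libraries and 6966 and 7305 in the KD libraries, with overlapping groups. RIOK1 had 1143 and 1051 in the EV libraries and 785 and 855 in the KD libraries of MDA-MB-231 (-0.42 ± 0.06 SE, adjusted p = 8.39e-06) and was lower also in SUM159 (-1.00) and BT549 OE (-0.42). Its relative RIOK2, an ATPase of the same family, had 583 and 483 in the EV libraries and 179.8 and 182 in the KD libraries of SUM159. It changed by -1.56 in SUM159 and rose by 0.36 in BT549. The calls of RIOK2 in MDA-MB-231 (-0.24) and BT549 were lost without EV replicate 1, KD replicate 1 or KD replicate 2 of the former (range -0.31 to -0.17) and without EV replicate 2 of the latter (range 0.27 to 0.45). LTV1 rose in MDA-MB-231, at 1327 and 1418 in the EV libraries and 1659.9 and 1678 in the KD libraries (0.28 ± 0.05 SE, adjusted p = 6.51e-05). It changed by -0.51 in SUM159 and -0.17 in BT549, with 32.04% of its 31-base words shared with other genes. PNO1, a KH-domain protein, changed by -0.74 in SUM159 and was not called in the other lines (-0.02 in MDA-MB-231 and 0.08 in BT549). RRP12, an export factor, changed by -0.39 in SUM159 and 0.87 in BT549.

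RNA polymerase I and its cofactors gave 8 of 8 lower in SUM159 KD (median -0.99), 5 of 8 lower in MDA-MB-231 KD (median -0.18) and 5 of 8 higher in BT549 OE (median 0.55). Of the 49 members 46, 21 and 30 were called in these directions, and of all genes tested 31.4%, 16.5% and 35.6%. POLR1E, the PAF53 subunit, had 2300.1 and 2168 in the EV libraries and 5647 and 5775 in the OE libraries of BT549 (1.35 ± 0.04 SE, adjusted p = 5.42e-19). It had 1574 and 1558 in the EV libraries and 1089 and 1054 in the KD libraries of MDA-MB-231 (-0.55 ± 0.05 SE, adjusted p = 3.28e-09) and 1277 and 1280.3 in the EV libraries and 934 and 943 in the KD libraries of SUM159 (-0.45 ± 0.05 SE, adjusted p = 4.08e-08). POLR1E was thus lower in every KD library and higher in both OE libraries than in the EV libraries of its line. RRN3, the factor that makes the polymerase competent to start, had 583 and 607 in the EV libraries and 218 and 198 in the KD libraries of SUM159 (-1.52 ± 0.09 SE, adjusted p = 2.61e-13) and 385 and 387 in the EV libraries and 918 and 961 in the OE libraries of BT549 (1.28 ± 0.08 SE, adjusted p = 3.6e-13), with -0.43 in MDA-MB-231. Other genes share 31.6% of its 31-base words. Of the catalytic pair, POLR1B had 1356 and 1396 in the EV libraries and 513 and 521 in the KD libraries of SUM159. It changed by -1.41 in SUM159 and -0.33 in MDA-MB-231, and its BT549 rise of 0.23 was not called without EV replicate 1 or OE replicate 2 (range 0.22 to 0.25). POLR1A changed by -0.22 in MDA-MB-231, lost without EV replicate 1, EV replicate 2 or KD replicate 2 (range -0.25 to -0.18), and by -0.14 in SUM159, lost without EV replicate 2, KD replicate 1 or KD replicate 2 (range -0.19 to -0.09). The SUM159 call of POLR1A was lost under 7 of the other alternatives as well. Among them were RLE size factors (-0.084, adjusted p = 0.220) and DESeq2 (-0.084, adjusted p = 0.340). POLR1C, shared with RNA polymerase III, changed by -1.20 in SUM159. UBTF, which opens rDNA chromatin, was lower in SUM159 KD (4063 and 4241 in the EV libraries and 2355 and 2395 in the KD libraries, -0.81) and lower in BT549 OE (4628 and 4719.6 in the EV libraries and 3759.9 and 3563 in the OE libraries, -0.35). NOLC1 (Nopp140) had 4601 and 4708 in the EV libraries and 2309.7 and 2379 in the KD libraries of SUM159 (-0.99 ± 0.04 SE, adjusted p = 3.47e-16) and rose by 0.92 in BT549, and its fall of 0.15 in MDA-MB-231 was not called without KD replicate 1 (range -0.17 to -0.13). TCOF1 (treacle), which links the polymerase to processing factors, changed by -0.98 in SUM159 and 0.87 in BT549.

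**Figure D4:**
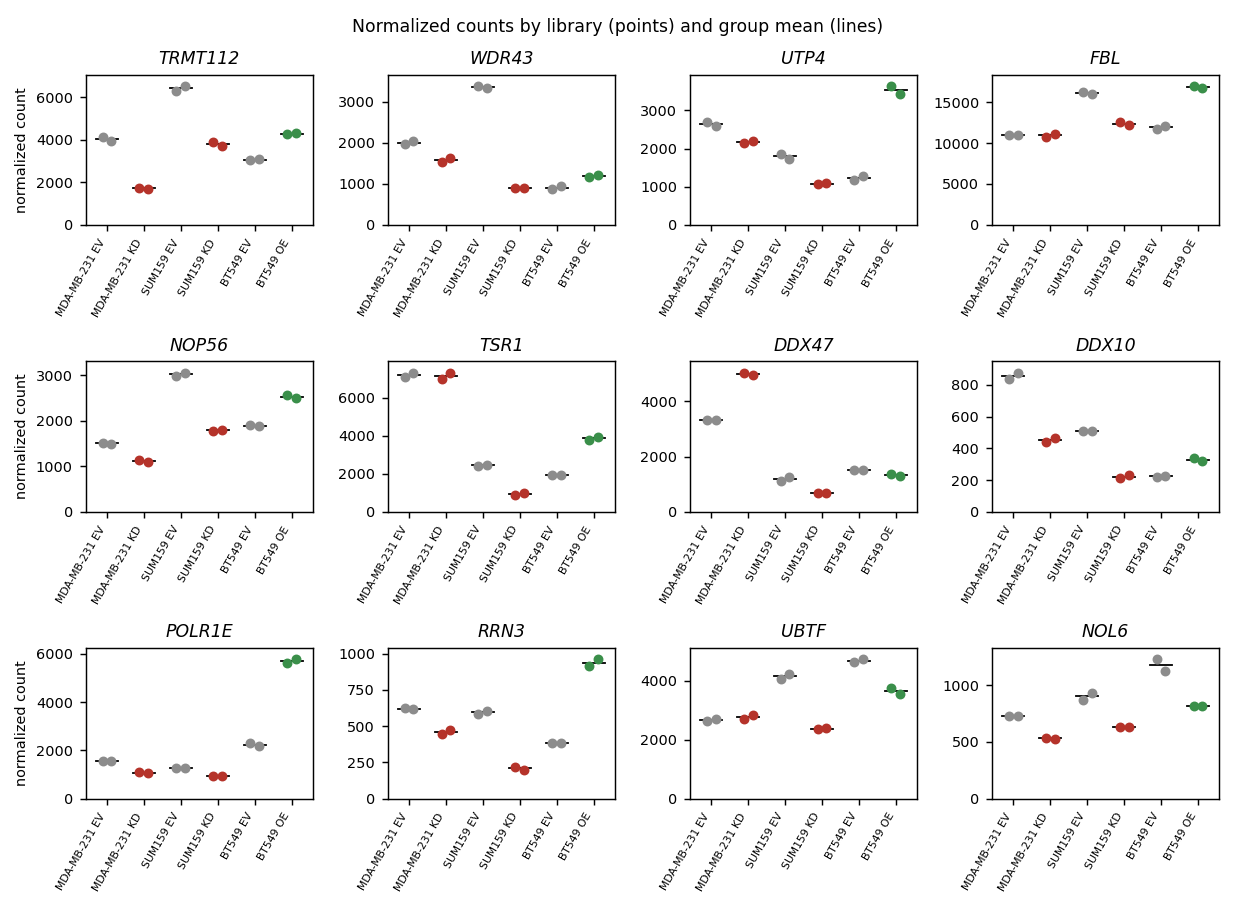
Normalized counts of TRMT112 and 11 members in each library (points) with group means (lines); vertical axes start at 0. WDR43 and RRN3 sit lowest in SUM159 KD relative to their EV libraries, UTP4 and POLR1E rise most in BT549 OE, and DDX47 rises with KD in MDA-MB-231 but falls with it in SUM159.

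Put side by side, 21 members (42.9%) were lower in both KD lines, against 7.47% of all genes tested. Of these, 14 were also higher in BT549 OE (28.6% of the members, against 2.99% of all genes): HEATR1, UTP4, WDR43, WDR75, WDR3, NOP56, NOP58, UTP20, DDX10, RIOK2, POLR1B, POLR1E, RRN3 and NOLC1. Without MDA-MB-231 KD replicate 1, with the calls of the other lines kept, the 14 became 9, without HEATR1, WDR3, UTP20, RIOK2 and NOLC1. With the most abundant transcript alone 9 members were lower in both KD lines and 6 of them higher in OE. The shares of all genes with these patterns were not counted under that setting. NOL11, UTP6, NOL6, NOP14 and RIOK1 were lower in both KD lines and lower in OE as well (10.2% of the members, against 2.94% of all genes), although NOP14 lost its OE call under the alternatives given with its values. With protein-coding transcripts alone, 2 members had that pattern. Lower in SUM159 KD and higher in BT549 OE were 29 members (59.2%, against 11.04% of all genes). The difference of the KD effects between the lines was itself tested: 41 members had a more negative effect in SUM159, with a median difference of -0.71. The opposite difference was called for 0 members by edgeR, also at an unadjusted p under 0.05, and for 0 by DESeq2. Among all genes 27.7% had a lower and 23.2% a higher effect in SUM159. The 8 members without a called difference were PWP2, IMP3, NOL6, UTP11, UTP20, UTP25, POLR1A and POLR1E. DDX10 was just inside the threshold (-0.28, adjusted p = 0.0483), a call that held only without MDA-MB-231 KD replicate 1 among the 8 libraries left out in turn. The effect on these 41 members was more negative in SUM159, whereas TRMT112 itself fell more in MDA-MB-231 where no length correction was made.

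Promoters were searched for the E-box CACGTG, which reads the same on both strands, from 250 bases before to 50 after each RefSeq start site (GRCh38.p14). Of the 41 members with an entry, 15 (36.6%) held it, as did 10 of 31 other genes of the pathway (32.3%), against 7.45% of all 27195 promoters and 9.89% of the promoters of genes tested. Windows of 30 bases are shown for members that were lower in both KD lines, with the E-box in capitals, beside FBL, the most abundant member.
UTP4: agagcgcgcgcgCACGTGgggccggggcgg
WDR43: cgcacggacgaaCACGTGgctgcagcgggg
UTP20: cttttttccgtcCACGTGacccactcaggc
NOP14: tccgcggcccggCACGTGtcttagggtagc
NOL6: ggcatttccgccCACGTGggaagctatgag
FBL: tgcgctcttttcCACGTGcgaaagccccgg
The windows lie at chr16:69132621-69132650 (+) for UTP4, chr2:28894658-28894687 (+) for WDR43, chr12:101280083-101280112 (+) for UTP20, chr4:2963374-2963403 (-) for NOP14, chr9:33473894-33473923 (-) for NOL6 and chr19:39846356-39846385 (-) for FBL, each read 5′ to 3′ on the strand of its gene. The E-box begins 16 bases before the start site in UTP4 and 10 before it in UTP20, and lies just past the start in the other 4. Members with the E-box had a median log2 change of -0.51 in SUM159 (14 of 15 lower) and members without it -0.93 (24 of 26 lower). In MDA-MB-231 the medians were -0.02 (5 of 15 lower, 1 higher) and -0.22 (13 of 26 lower, 4 higher). Over all genes tested 31.4% were lower in SUM159 and 16.5% in MDA-MB-231. In BT549 the medians were 0.38 and 0.28. A match describes the letters only.

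Among 35 further genes of the same pathway, 65.7% were lower and 20% higher in SUM159 KD (23 and 7 genes, median -0.35), against 31.4% and 28.6% of all genes tested. In MDA-MB-231 KD 12 were lower and 7 higher (34.3% and 20%, median -0.04), against 16.5% and 21.2% of all genes. In BT549 OE 19 were higher and 7 lower (54.3% and 20%, median 0.20), against 35.6% and 35%. NCL (nucleolin), the most abundant of them in SUM159 EV, had 16591 and 16891 in the EV libraries and 6716 and 6774 in the KD libraries of SUM159 (-1.31 ± 0.03 SE, adjusted p = 2.49e-20), 8742 and 8784 in the EV libraries and 6576 and 6531 in the KD libraries of MDA-MB-231 (-0.42 ± 0.03 SE, adjusted p = 2.19e-10) and 7145 and 7512 in the EV libraries and 11735 and 12244 in the OE libraries of BT549 (0.71 ± 0.03 SE, adjusted p = 7.52e-16). DDX21, a helicase of the nucleolus, changed by -0.35, -1.21 and 0.94 in the same order of MDA-MB-231, SUM159 and BT549. BUD23, the 18S rRNA methyltransferase that binds TRMT112, was higher in MDA-MB-231 KD, at 4649 and 4849 in the EV libraries and 6461 and 6459 in the KD libraries (0.44 ± 0.03 SE, adjusted p = 1.67e-10). NOB1, the nuclease that makes the final cut of 18S rRNA, rose by 1.18 in BT549, and DCAF13 rose by 1.10. Against the trend in SUM159, TSR2, a chaperone of a ribosomal protein, rose by 1.01, TAF1C by 0.79, RRP36 by 0.49, TSR3 by 0.39, FCF1 by 0.30, ABT1 by 0.18 and SNU13 by 0.08. In MDA-MB-231 POLR1F (0.36), TAF1C (0.32), WDR46 (0.24), RRP36 (0.22), DIMT1 (0.20) and AATF (0.14) were higher. In BT549 TAF1A (-1.25), TSR2 (-1.00), KRR1 (-0.85), RCL1 (-0.65), TTF1 (-0.59), AATF (-0.51) and TAF1C (-0.44) were lower. TAF1C had 61.8% of its counts on retained-intron transcripts. With coding transcripts alone it was not called in SUM159 (0.099, adjusted p = 0.648), MDA-MB-231 (0.28, adjusted p = 0.262) or BT549 (0.33, adjusted p = 0.153). In MDA-MB-231 DIMT1 was not called with coding transcripts alone (0.086, adjusted p = 0.373). AATF was not called there with library-size scaling (0.054, adjusted p = 0.3997).

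In the EV libraries the members differed between lines, although line and culture medium cannot be told apart. BT549 EV also differed from the other EV groups in control vector and selection drug, which cannot be told apart from the line either. SUM159 EV had the highest mean for 28 members, in 26 of them with no overlap with the other lines, and BT549 EV had the lowest mean for 31, in 28 with no overlap. The same counts were not made over all genes, so they cannot be read as a trait of these members. Per kilobase of transcript, FBL led in all 6 groups, from 10535 to 16230.0 normalized counts per kb, while UTP20 and PWP2 were the lowest pair in each. The median member stood at 419.7 per kb in SUM159 EV and 218 in SUM159 KD.

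Most members were counted on coding transcripts, but for 4 (TBL3, UTP6, NOL10 and DDX52) the coding share was under 50%. TBL3 had 74.999% and 70.5% of its counts on retained-intron transcripts in SUM159 EV and 75.1% and 67.9% in KD. UTP6 had 80.5% and 73.97% there in BT549 EV and 70.8% and 67.7% in OE. NOL10 had 50.6% and 52.3% on transcripts annotated for nonsense-mediated decay in SUM159 EV and 49.97% and 58.96% in KD. DDX52 had 61.2% and 60.6% of its counts on that class in SUM159 EV and 45.7% and 42.6% in KD. MPHOSPH10 had 10.9% and 10.1% in SUM159 EV and 13.4% and 30.4% in KD. Expected counts divide a read among transcripts that share it, so these shares are estimates, and no test was run on them.

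**Figure D5:**
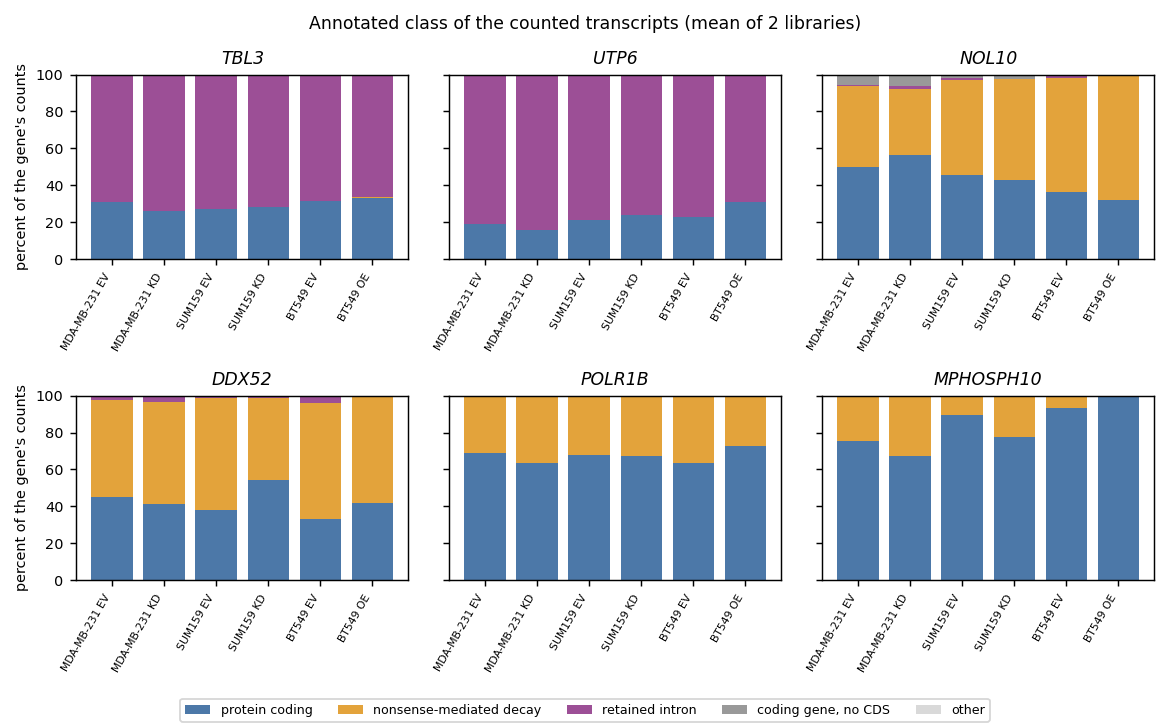
Share of each gene's expected counts by annotated transcript class, as the mean of the 2 libraries of each group, for 6 members with a sizeable noncoding share. TBL3 and UTP6 lie mostly on retained-intron transcripts in all 6 groups, and NOL10 and DDX52 are divided between coding and decay classes.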

How the data were processed

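The members, the lists and the tests were chosen with earlier results of these data known. Upstream, the authors used Trimmomatic for trimming, HISAT2 for alignment (GRCh38) and SAMtools for removal of duplicates. They deposited expected counts for each Ensembl transcript without normalization. In 5.08% of rows the 8 deposited columns of both KD lines hold a missing mark instead of a number, taken as 0 here, and for that mark their unit is entered as other. The counting tool and strand setting are not given in the sources used here, and the labels name a poly(A) kit whereas the methods name a kit for rRNA-depleted total RNA. The table lists no transcript at 0 in all BT549 libraries.

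Transcripts were matched to GENCODE 44 (79.6%), summed per symbol and rounded. Genes kept by filterByExpr were TMM-normalized, and edgeR 4.0.16 gave the quasi-likelihood tests (1 model of 6 group means, 6 residual degrees of freedom) in R 4.3.3, with Benjamini-Hochberg adjustment over all 16538 genes. Fits were tested on simulated data. Alternatives were RLE or library-size scaling, DESeq2 1.42.0, other filters, a replicate block, each line alone, coding or most abundant transcripts, a length offset and leaving out each library. Leaving out marked transcripts was added after seeing the data. The genes named are all 49 members by count and, by the naming rule, the highest member and the smallest p per comparison in each role group, members called in all 3 comparisons and those called against the majority, with library values in 1 or more comparisons. Other pathway genes are named by smallest p or a call against the majority. Values of further members are given beside them. Promoters came from RefSeq (GRCh38.p14), with no entry for 8 members. The motif share was compared by count. Tables were made with Python 3.11.15 and pandas 2.3.3.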

Additional observations from a re-analysis of the deposited data

Results flagged for a closer look

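The KD effect differed between SUM159 and MDA-MB-231, by the interaction term of the same edgeR fit, for 41 of the 49 members, each with a more negative effect in SUM159. For 4 of them the calls in the lines had opposite signs: the difference of the log2 effects was -1.38 for DDX47 (adjusted p = 1.25e-13), -1.04 for NOC4L (adjusted p = 9.57e-11), -0.79 for LTV1 (adjusted p = 9.33e-10) and -0.54 for EMG1 (adjusted p = 1.89e-07). A called rise in MDA-MB-231 together with a called fall in SUM159 was found for 8.16% of the members and 7.37% of all genes tested. The count of 4 therefore does not set the members apart from other genes. DDX47, LTV1 and EMG1 share sequence with overlapping genes, and the part of that sharing in their opposite calls was not tested.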

How the results depend on the processing

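Among the 46 members lower in SUM159 KD, 44 kept their call without each library in turn, and the count ran from 44 to 46 over all alternatives. For MDA-MB-231 14 of 21 kept it, and counting the most abundant transcript alone left 9 lower. In BT549 26 of 30 higher and 11 of 14 lower kept it. In place of 0 members higher in SUM159 KD, 1 was found with RLE size factors, with a mean of at least 50 counts, with DESeq2 and, of the libraries left out (0 to 1), without KD replicate 2. With the calls of the other lines kept, 15 to 21 members were lower in both KD lines without each library, 9 to 14 of them also higher in OE, 4 to 5 also lower in OE, and 26 to 29 were lower in SUM159 KD and higher in OE. The most abundant transcript alone gave 9, 6 and 2 for the first 3 of these counts, and coding transcripts alone gave 2 lower in all 3. Shares of all genes with these patterns were not counted under the alternatives. With the most abundant transcript alone, 1221 of 16200 genes were lower in MDA-MB-231 KD.

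The direction reversed with the length offset for IMP3 (-0.16) and SNU13 (-0.094) in SUM159 and POLR1C (-0.13), BUD23 (-0.058) and RRP36 (-0.23) in BT549. It reversed with coding transcripts alone for UTP11 (0.0090), DDX52 (0.053) and TAF1C (0.33) in BT549 and for TAF1C in the difference of the KD effects (-0.18). It reversed with the most abundant transcript for NOP14 (0.072) and POLR1B (-0.41) in BT549. The cause was not tested.

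No pairing of the libraries by replicate number was detected: deviations of same-numbered libraries correlated at 0.016 in BT549, 0.0029 in MDA-MB-231 and -0.030 in SUM159. These correlations ran over all genes tested without weights, genes with low counts included, so a weak pairing could be missed. With a replicate block, 20 members were lower and 5 higher in MDA-MB-231 KD, 46 lower and 0 higher in SUM159 KD, 30 higher and 12 lower in BT549 OE, and 41 had a more negative effect in SUM159. With 2 libraries per group, leaving out 1 assumes that the lone library varies like the others.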
